A study of Mus musculus with 6 samples.

Results

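The 7 genes of the creatine route were compared between mouse mammary tumour explant cells with a control hairpin and the same kind of cells with a hairpin against CdGAP. Members were taken by symbol from the 41214 genes of the deposited files. They are Gatm and Gamt (synthesis), Slc6a8 (uptake), and the creatine kinases Ckb, Ckm, Ckmt1 and Ckmt2. The set was chosen by the measured CPM of Gatm, which dropped to near 0 in the CdGAP knockdown, so the Gatm difference is described without a test, and the other 6 members were looked at in the same 2 groups. All cells derive from NMuMG, a mouse mammary epithelial line, and express the receptor ErbB2. Of the 6 libraries, 3 carry shCTL (genotype label WT, n = 3) and the others shCdGAP (genotype label CdGAP KD, n = 3). The labels do not say whether a line is a clone or a pool, nor whether each replicate was its own culture. The p-values therefore rest on a spread among libraries that could be technical.

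Creatine is made in a pair of steps. Gatm joins arginine and glycine to form guanidinoacetate in mitochondria, and Gamt methylates guanidinoacetate to creatine with S-adenosylmethionine as the methyl donor. Cells can also import creatine through the sodium-dependent carrier Slc6a8. Creatine kinases then move phosphate between ATP and creatine, the cytosolic forms (Ckb, Ckm) where ATP is used and the mitochondrial forms (Ckmt1, Ckmt2) where it is made.

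The libraries held 19176540 to 26824249 fragments assigned to genes. Arhgap31, the gene of CdGAP, was at 13.2, 14.4 and 15.1 CPM (counts per 1e+06 of the scaled library) in shCTL replicates 1 to 3 and at 1.70, 9.16 and 8.21 CPM in shCdGAP replicates 1 to 3. The groups did not overlap, but the difference did not pass the test on all libraries (log2 fold change −1.16 ± 0.55, edgeR adjusted p = 0.19). It passed without shCdGAP replicate 1 (−0.71, adjusted p = 0.00407) and without both libraries numbered 1 (−0.76, 0.000408). In shCdGAP replicate 1, the library with the least Arhgap31, Gamt, Slc6a8 and Slc16a12 were higher than in the other shCdGAP libraries. That library also stood far from its replicates over all tested genes (chi-square over its degrees of freedom 155 and 203). The relation of Arhgap31 to the levels of these genes was not tested. The keratins Krt8 and Krt18 of simple epithelia were abundant, and the summed level of 6 epithelial markers ran from 5353 to 7709 CPM in shCTL and from 6306 to 10126 CPM in shCdGAP. The sum was mostly Krt8 and Krt18, and single markers went opposite ways. Cdh1 (E-cadherin), with a mean of 232 CPM in shCTL, rose to 768 CPM (adjusted p = 0.00193). Krt5, a basal keratin, fell from 1.33 CPM to near 0 (adjusted p = 0.00138). Epcam had 32, 29 and 31 counts in shCTL and 0 in every shCdGAP library (adjusted p = 0.00343). Krt14 had 0 to 2 counts in each library. Of markers of other cell types, 3 endothelial genes summed to 0.602 to 0.837 CPM in shCTL and 0 to 0.159 in shCdGAP, and 3 leukocyte genes to 15.6 to 21.8 and 3.01 to 11.2 CPM. Nearly all of the leukocyte sum was Cd68, while the macrophage marker Adgre1 was at 0 in every library and the pan-leukocyte marker Ptprc was at 0.358 CPM or less. The sums of 4 fibroblast genes (5.35 to 6.19 and 3.33 to 7.02 CPM) and of 4 neuronal genes (0.255 to 0.413 and 0.227 to 0.849 CPM) overlapped between the groups. Single genes in these sums did not. Syt1 had 1, 1 and 0 fragments in shCTL and 18, 4 and 15 in shCdGAP, while Tubb3 had 7, 4 and 6 against 0 in each. Col1a1 (mean 1.60 and 2.72 CPM, not called) and Dcn (0.0497 and 0.245 CPM) were higher in shCdGAP. The other genes of both lists overlapped. The part of these markers in the results on creatine genes was not tested. Since these are bulk samples, fewer cells of a type and less RNA per cell cannot be told apart.

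Gatm, the first enzyme of synthesis, was almost lost in all 3 shCdGAP libraries. It had 2341, 3852 and 3651 fragments in shCTL, or 121, 140 and 137 CPM, and 3, 6 and 1 fragments in shCdGAP, or 0.134, 0.272 and 0.0396 CPM. Each shCdGAP library was thus far below each shCTL library, which follows from the choice of the set by Gatm. With so few fragments, a relation to the Arhgap31 level could not be read among the shCdGAP libraries and was not tested. The ratio of the pooled counts, shCTL over shCdGAP, was 934, with an exact 95% binomial interval of 507 to 1947 that covers counting error only. The log2 fold change was −9.79 ± 0.388 (SE), and 6 of the 13483 tested genes had a lower one. Per kb of exon, Gatm had the highest level of the route in shCTL, at 44.2 ± 3.49 CPM per kb (SD, n = 3), and was at 0.0495 ± 0.0389 in shCdGAP.

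Gamt, the methyltransferase of the next step, was lower in shCdGAP in all 3 libraries, without passing the test. It was at 27.8, 27.1 and 31.0 CPM in shCTL and at 19.4, 9.48 and 7.10 CPM in shCdGAP. The groups did not overlap, and shCdGAP replicate 1 lay between its own replicates and the controls. The log2 fold change was −1.26 ± 0.368 (SE, edgeR adjusted p = 0.0551). Without shCdGAP replicate 1 it was −1.78 and passed (adjusted p = 8.67e-05). It also passed with DESeq2 (adjusted p = 0.00478), with RLE size factors (0.0488), with no filter on low counts (0.0291) and without both libraries numbered 1 (7.31e-07). Over 12 alternatives the adjusted p ran up to 0.16.

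Slc6a8, the creatine importer, was not called, and its groups overlapped. Its levels were 150, 103 and 106 CPM in shCTL and 147, 64.5 and 60.0 CPM in shCdGAP. Both libraries numbered 1 were high, and shCdGAP replicates 2 and 3 lay below every control. The log2 fold change was −0.40 ± 0.373 (SE) (edgeR adjusted p = 0.497). Slc6a8 was lower in shCdGAP in each of the 3 pairs of libraries with the same number, and with the replicate number as a block the log2 fold change was −0.51 ± 0.186 (adjusted p = 0.128). Without shCdGAP replicate 1 it was −0.93 and passed (adjusted p = 0.00312), and without both libraries numbered 1 it was −0.74 and passed (5.74e-06). Over 12 alternatives its adjusted p ran up to 0.776.

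Creatine kinase transcripts were few or not detected in both groups. Ckmt1, the ubiquitous mitochondrial form, was at 2.27, 5.13 and 4.63 CPM in shCTL and at 4.11, 5.26 and 5.27 CPM in shCdGAP. The groups overlapped, the library numbered 1 was the lowest of each, and the log2 fold change was 0.28 ± 0.327 (SE, edgeR adjusted p = 0.602). Ckb, the brain-type cytosolic form, had 8, 2 and 2 fragments in shCTL and 0 in each shCdGAP library, too few to be tested. Ckm, the muscle form, and Ckmt2, the mitochondrial form of heart and skeletal muscle, had 0 fragments in all 6 libraries. With 0 fragments, levels as high as 0.109 to 0.155 CPM remain possible, depending on the library (3 fragments, counting error only). Of 12 skeletal and heart muscle markers 3 were at 0 in every library, and their summed level was 0.527 to 0.722 CPM in shCTL and 0.357 to 0.492 CPM in shCdGAP.

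**Figure D1:**
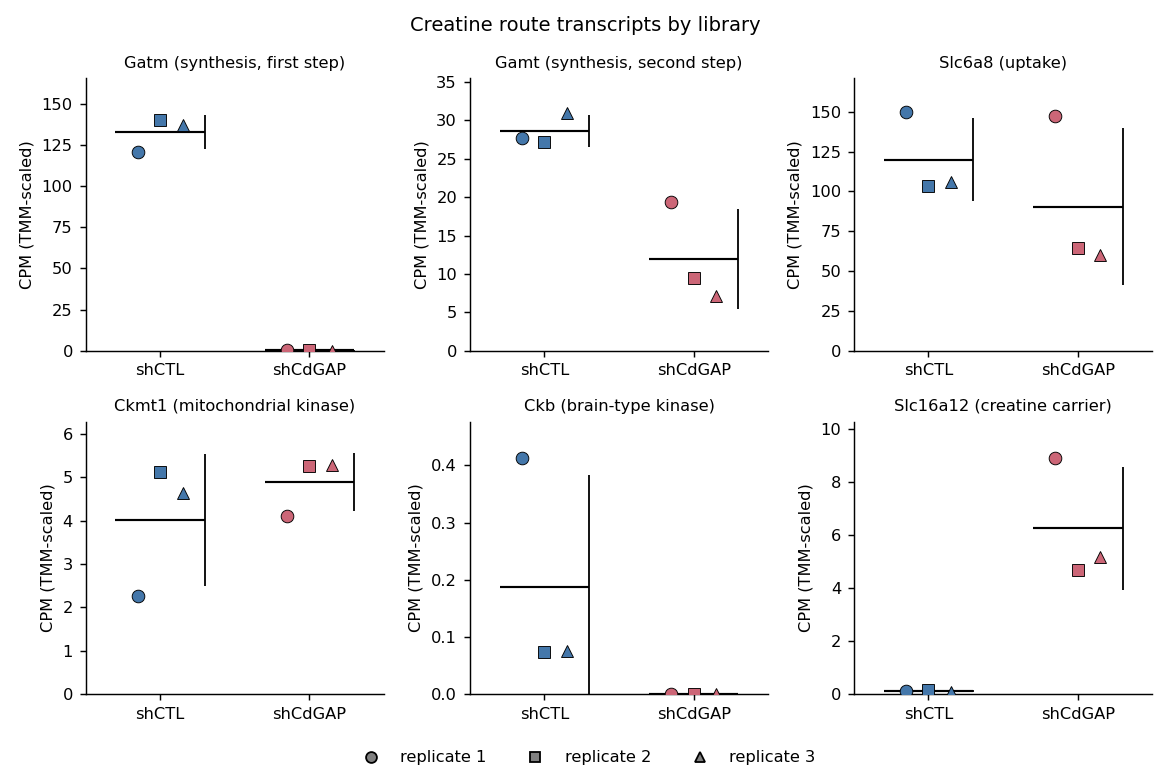
TMM-scaled CPM of 5 creatine route genes and the creatine carrier gene Slc16a12 in each library (points, shaped by replicate number), with the group mean (horizontal line) and SD (vertical line, ended at 0). Axes start at 0 and differ between panels. Gatm lies at 121 to 140 CPM in shCTL and under 1 CPM in shCdGAP, Slc6a8 overlaps between the groups, and Ckb is at 0.413 CPM or less everywhere.

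Of the 7 members, 4 passed the filter on low counts. Of the 3 tested besides Gatm, 0 were called by edgeR, 1 (Gamt) had an unadjusted p under 0.05, and DESeq2 called 1 (Gamt). Over all tested genes 21.7% were called, 10.4% higher and 11.4% lower. At an unadjusted p under 0.05, 2352 of the 13483 tested genes were higher and 2332 lower. DESeq2 called 1894 of them higher and 1949 lower. Of the same 3, the groups did not overlap for 1 (Gamt, lower in shCdGAP), while they did not overlap for 44.1% of all tested genes in either direction and 22.4% in this one. Per kb of exon and apart from Gatm, the tested members came in the order Slc6a8, Gamt, Ckmt1 in both groups. In shCTL, Gatm came first, followed by Slc6a8 at 23.0 ± 5.02 and Gamt at 19.8 ± 1.42 CPM per kb, which did not differ beyond their spread, and then Ckmt1 at 1.61 ± 0.612. In shCdGAP, the ranges of Slc6a8 (17.4 ± 9.41 CPM per kb) and Gamt (8.30 ± 4.52) overlapped across libraries. Within each library Slc6a8 was the higher, at 28.2 against 13.4, 12.4 against 6.56 and 11.5 against 4.91 in replicates 1 to 3. Ckmt1 (1.96 ± 0.267) came next, then Gatm, with Ckb, Ckm and Ckmt2 at 0.

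The members lie apart in the genome. On GRCm38, in the deposited annotation, Gatm (ENSMUSG00000027199) spans chr2:122594467-122611303 on the minus strand, Ckmt1 (ENSMUSG00000000308) chr2:121357714-121363737 on the plus strand, Gamt (ENSMUSG00000020150) chr10:80258151-80261012 on the minus strand, and Slc6a8 (ENSMUSG00000019558) chrX:73673150-73682502 on the plus strand. Fragments were counted over exons. Sequences before the starts of 3 members follow, because Gatm is the gene that was lost, Gamt is its partner in synthesis and Ckb is the cytosolic kinase with hardly any fragments. They are RefSeq promoter sequences of GRCm38.p6, all read on the minus strand, 5′ to 3′, and each stops before the deposited gene span. Capitals mark motif matches.
Gatm, chr2:122611304-122611527: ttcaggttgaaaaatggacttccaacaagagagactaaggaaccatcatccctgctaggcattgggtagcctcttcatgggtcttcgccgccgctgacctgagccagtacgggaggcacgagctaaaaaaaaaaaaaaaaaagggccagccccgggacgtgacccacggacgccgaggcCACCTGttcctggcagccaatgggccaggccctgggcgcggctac
Gamt, chr10:80261013-80261262: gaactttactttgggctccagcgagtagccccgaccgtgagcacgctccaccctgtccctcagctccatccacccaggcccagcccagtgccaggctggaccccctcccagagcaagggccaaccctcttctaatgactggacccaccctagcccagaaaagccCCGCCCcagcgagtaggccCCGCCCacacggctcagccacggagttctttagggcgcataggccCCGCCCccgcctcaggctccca
Ckb, chr12:111672339-111672588: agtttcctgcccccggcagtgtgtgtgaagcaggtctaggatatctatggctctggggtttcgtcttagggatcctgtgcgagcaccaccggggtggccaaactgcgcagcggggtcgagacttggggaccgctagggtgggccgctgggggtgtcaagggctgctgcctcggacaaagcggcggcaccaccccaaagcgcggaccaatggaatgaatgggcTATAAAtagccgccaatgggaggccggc

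Motifs were searched on both strands in the 250 bases before each RefSeq start, for the 6 members with an entry (7 windows, with a pair for Ckmt1). The Gatm window held 1 match to CAGGTG, the E-box form that Zeb and Snail factors are known to bind, read as CACCTG from 71 to 66 bases before the RefSeq start. That start lies inside the deposited gene span, so the last 26 bases of the window are not in the printed stretch. Ckmt2 held 1 as well, and the other member windows held none. Of 32851 promoter windows of the same length 17.2% held this motif. The Gamt window held 3 matches to GGGCGG, the core of the GC box, and Ckmt2 held 1, while 32.7% of all windows held it. Ckb held TATAAA, the TATA box, from 28 to 23 bases before the start, and the first Ckmt1 window held it on the other strand (TTTATA, 31 to 26 bases before the start). Of all windows 12.4% held it. TGACGTCA, the cyclic AMP response element, was in 1.55% of windows and in no member window. No match overlapped another. A match is a description of letters, and no binding was measured here.

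The tested genes around Gatm did not share the size of its change. Of 26 other genes within 500 kb of Gatm, 9 were tested, 2 were called lower and 0 higher (0 higher also at an unadjusted p under 0.05 and with DESeq2). That is 22.2% called, all lower, where 21.7% of all tested genes were called and 11.4% were called lower. Slc28a2, too low to be tested, had 11, 5 and 8 fragments in shCTL and 0, 1 and 0 in shCdGAP. The median log2 fold change of the tested neighbours was −0.20, against 0.01 over all tested genes. Spata5l1, an ATPase gene whose start is 19.3 kb from that of Gatm, was at 4.69, 5.97 and 5.64 CPM in shCTL and 3.49, 5.89 and 6.30 CPM in shCdGAP, overlapping groups (log2 fold change −0.06 ± 0.267, adjusted p = 0.91). Next to it, AA467197 fell from 1.08 ± 0.359 to 0.101 ± 0.0693 CPM (log2 fold change −3.34 ± 0.515, adjusted p = 0.00616). Slc30a4, a zinc transporter of vesicles that starts 91.4 kb away, fell from 285 ± 56.4 to 136 ± 7.66 CPM (−1.07 ± 0.156, adjusted p = 0.00509). On the other side, the adaptor gene Shf (log2 fold change −0.49, adjusted p = 0.234) and the sorbitol dehydrogenase gene Sord (0.32, adjusted p = 0.768) were not called. Sord stood at 123 CPM in shCdGAP replicate 1 against 26.3 and 24.8 CPM in its replicates. Without that library Sord was −0.85 and called lower (adjusted p = 0.00383), Shf was −0.74 and called lower (0.0141), and 6 genes of the window were called lower, while lower calls over the whole table went from 1534 of 13483 to 3032 of 13831 tested genes.

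**Figure D2:**
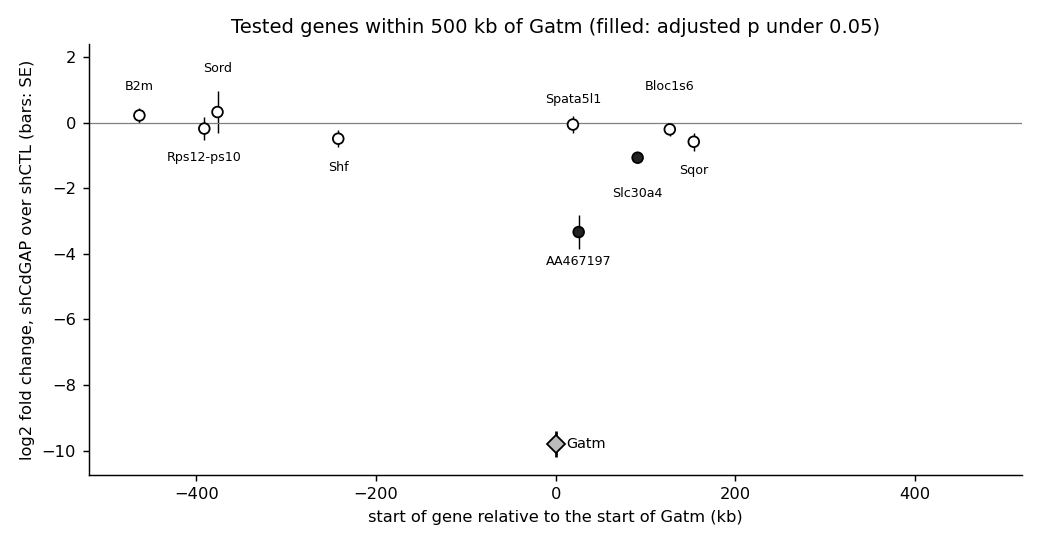
Log2 fold change, shCdGAP over shCTL, with its SE, of the 9 tested genes within 500 kb of Gatm and of Gatm itself (grey diamond), by distance between gene starts in kb. Filled points passed an adjusted p under 0.05. Gatm lies at −9.79, AA467197 at −3.34 and Slc30a4 at −1.07, and the other genes lie between −0.58 and 0.32.

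Carriers of creatine and of its precursor changed in both directions. Slc16a12, a monocarboxylate transporter family member that carries creatine across the membrane, rose from near 0. It had 2, 4 and 2 fragments in shCTL (0.103, 0.146 and 0.0752 CPM) and 199, 103 and 130 in shCdGAP (8.89, 4.67 and 5.15 CPM). Every shCdGAP library was above every control, the ratio of pooled counts was 56.9 (exact 95% binomial interval 28.6 to 133, counting error only), and the log2 fold change was 5.78 ± 0.439 (adjusted p = 0.000538). Slc6a13, a carrier of GABA and taurine that also takes guanidinoacetate, fell from 0.776 ± 0.05 to 0.347 ± 0.0886 CPM (log2 fold change −1.15 ± 0.291, adjusted p = 0.0344). That call was lost with the replicate number as a block (adjusted p = 0.0777), with DESeq2 (0.0749), with no filter on low counts (0.0734) and without any 1 of the libraries except shCdGAP replicate 1 (up to 0.14). Slc6a6, the taurine carrier, was at 582, 559 and 553 CPM in shCTL and 953, 857 and 646 CPM in shCdGAP. Its groups did not overlap, and it did not pass (log2 fold change 0.54 ± 0.156, adjusted p = 0.0542). Without shCdGAP replicate 1 its adjusted p was 0.0235, without shCdGAP replicate 3 it was 0.015, and over 12 alternatives it ran from 0.00512 to 0.179. Slc6a6 was named after its values were seen. Slc22a2 had 0 fragments in every library.

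Genes that supply arginine and glycine, or use them otherwise, were called about as often as all genes. Of 25 such genes 19 were tested, 2 rose, 2 fell and 15 were not called (21.1% called, against 21.7% of all tested genes), with a median log2 fold change of −0.03. Slc7a7, a light chain that exchanges arginine and other cationic amino acids, rose from 5.48 ± 0.498 to 23.8 ± 14.1 CPM, with 40.0 CPM in shCdGAP replicate 1 and 17.2 and 14.2 CPM in its replicates (log2 fold change 2.12 ± 0.415, adjusted p = 0.0147). Its heavy chain gene Slc3a2 rose from 261 ± 12.8 to 351 ± 26.7 CPM (0.43 ± 0.101, adjusted p = 0.0283). Nos1, the neuronal nitric oxide synthase, which consumes arginine, fell from 1.53 ± 0.211 to 0.172 ± 0.0895 CPM (−3.11 ± 0.385, adjusted p = 0.00283). Shmt2, the mitochondrial enzyme that makes glycine from serine, fell from 302 ± 68.7 to 159 ± 42.8 CPM (−0.92 ± 0.249, adjusted p = 0.0427). The Slc7a7 call did not hold without shCTL replicate 1, 2 or 3 (adjusted p up to 0.0696), and the Slc3a2 call held without shCdGAP replicate 1 but not without another single library (up to 0.143). The Shmt2 call was lost with the replicate block (adjusted p = 0.0888), with at least 10 CPM required (0.0539), and on leaving out shCdGAP replicate 2 or any of the 3 shCTL libraries (up to 0.147). Its log2 fold change was −0.52 without both libraries numbered 1.

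In the S-adenosylmethionine cycle, which feeds the Gamt step, 1 of 10 tested genes of 15 was called. That is 10%, against 21.7% of all tested genes. Cbs, the enzyme that draws homocysteine out of the cycle, was at 2.22, 2.91 and 2.60 CPM in shCTL and 30.1, 19.9 and 20.0 CPM in shCdGAP. All shCdGAP libraries were well above the controls (log2 fold change 3.17 ± 0.24, adjusted p = 0.000526). The other 9 were not called, and 0 fell by edgeR. At an unadjusted p under 0.05, 4 genes including Cbs were higher and 1 was lower. Of all 13483 tested genes, 2352 were higher and 2332 lower at that threshold. DESeq2 called 2 higher and 1 lower in the list, and 1894 higher and 1949 lower of all tested genes. The list's median log2 fold change was −0.02.

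Among adenylate kinases, other enzymes that shuttle high-energy phosphate, Ak1 and Ak4 fell and Ak3 rose. Per kb of exon, Ak1 was at 60.2 and 16.9 CPM per kb in shCTL and shCdGAP and Ak3 at 53.3 and 88.0, while the 4 creatine kinases together were at 1.19 to 2.10 in the shCTL libraries and 1.65 to 2.11 in the shCdGAP libraries. Ckmt1 made up 76.5% to 97.7% of the creatine kinase sum in shCTL and 100% in shCdGAP. Ak1, the cytosolic form, fell from 149, 178 and 178 CPM to 52.1, 47.1 and 42.4 CPM, with the groups far apart (log2 fold change −1.83 ± 0.13, adjusted p = 0.000426). Ak4, a mitochondrial form, fell from 41.3 ± 5.37 to 15.3 ± 5 CPM (−1.43 ± 0.248, adjusted p = 0.00938). Ak3, the GTP-using form of the mitochondrial matrix, rose from 166 ± 2.87 to 275 ± 41.6 CPM (0.72 ± 0.129, adjusted p = 0.0103). The Ak3 call was lost without shCTL replicate 2 (adjusted p = 0.0598) or 3 (0.0523).

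**Figure D3:**
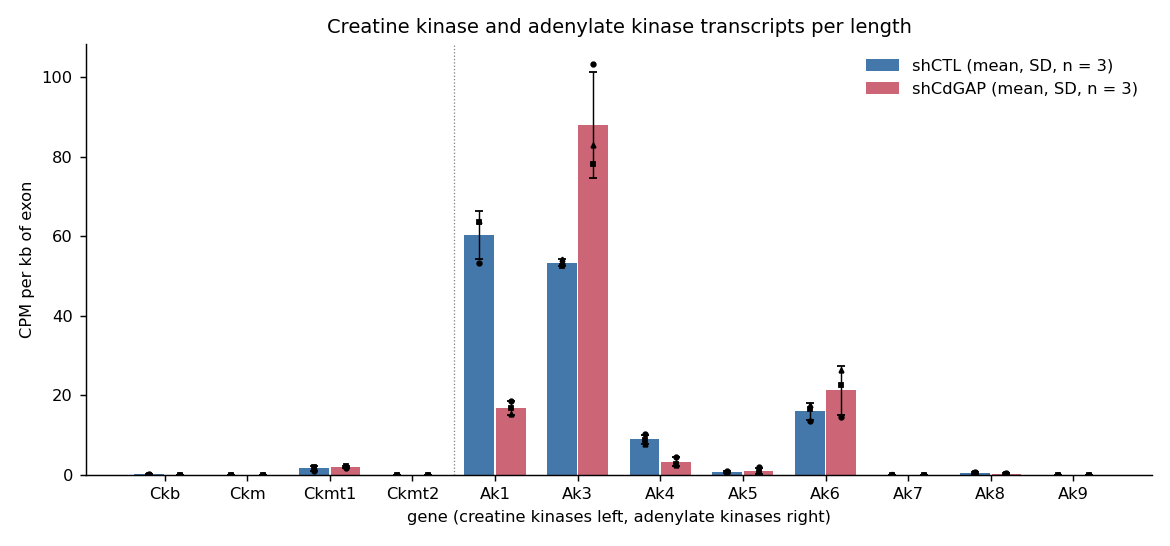
Level per kb of exon (TMM-scaled CPM per kb) of the creatine kinases and of 8 adenylate kinases, as group means (bars) with SD (error bars, n = 3) and single libraries (black points). Ckmt1 is at 1.61 and 1.96 CPM per kb in shCTL and shCdGAP, while Ak1 goes from 60.2 to 16.9 and Ak3 from 53.3 to 88.0.

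The list of other phosphotransfer and ATP export genes held 19 genes. Of 15 tested, 2 rose and 2 fell (26.7% called, against 21.7% of all tested genes), with a median log2 fold change of 0.07. Besides Ak1, Ak3 and Ak4, Vdac3, an outer membrane channel, rose from 64.1 ± 1.37 to 89.4 ± 11.3 CPM (log2 fold change 0.48 ± 0.119, adjusted p = 0.0324). Its call was lost with no filter on low counts (adjusted p = 0.0732) and without any 1 of the libraries except shCdGAP replicate 1 (up to 0.143).

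Among 10 factors known to act on creatine kinase or creatine synthesis genes, 7 were tested, 1 fell and 0 rose (0 also at an unadjusted p under 0.05 and with DESeq2). Esr1, the estrogen receptor, for which Ckb is a classical target, had 28, 31 and 20 fragments in shCTL and 0, 1 and 2 in shCdGAP. The ratio of pooled counts, shCTL over shCdGAP, was 25.0 (exact 95% binomial interval 8.24 to 124, counting error only; adjusted p = 0.00423). Levels were low throughout, at 1.11 ± 0.346 CPM in shCTL. Over the 73 genes of these 5 lists 54 were tested, and 6 rose and 6 fell. That is 22.2% called, close to the 21.7% of all tested genes.

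**Figure D4:**
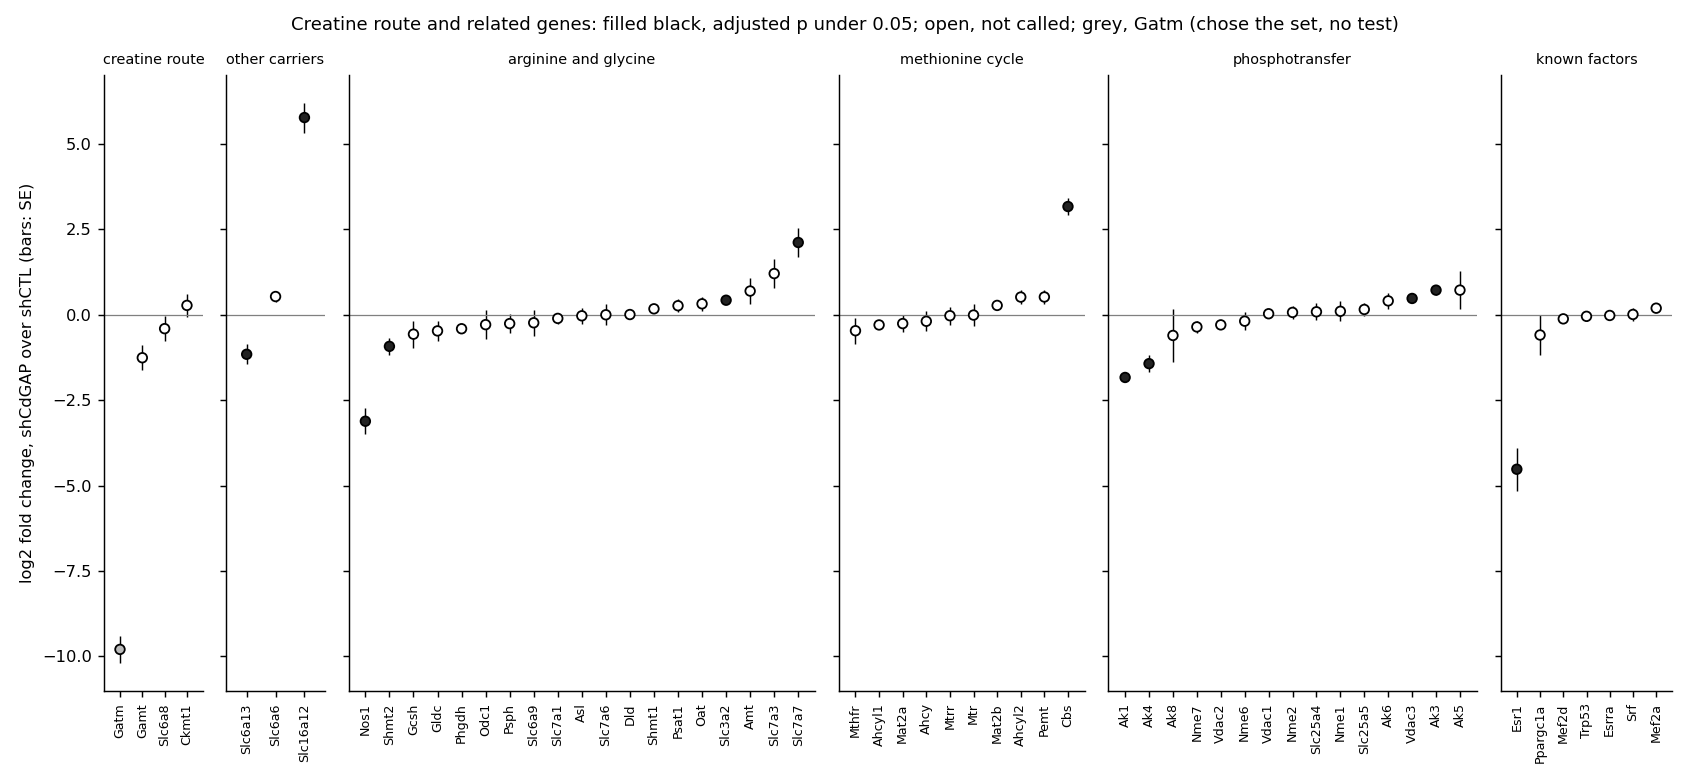
Log2 fold change, shCdGAP over shCTL, with its SE (bars), of the 4 tested members and the 54 tested genes of the 5 related lists, each list sorted by value. Black points passed an adjusted p under 0.05, open points did not, and Gatm is grey because it chose the set. Gatm at −9.79 and Slc16a12 at 5.78 lie farthest from 0.

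The tested genes whose levels followed Gatm most closely over the 6 libraries were Acan, Disp2, Peg3, Micu2 and Klhl13. Likeness was the root mean square distance between centred log2 CPM profiles, 0.72 for Acan, 0.91 for Disp2, 0.92 for Peg3, 0.93 for Micu2 and 0.95 for Klhl13 (log2 units, 6 libraries). All 5 share the drop to near 0 that chose Gatm, so this is a description. Acan, the cartilage proteoglycan aggrecan, had 750, 815 and 668 fragments in shCTL and 1, 0 and 0 in shCdGAP. Disp2, of the dispatched family, had 934, 1304 and 1194 against 7, 2 and 1. Klhl13, a substrate adaptor of cullin ubiquitin ligases, had 899, 1618 and 1644 against 7, 2 and 3. None of them lies within 500 kb of Gatm.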

How the data were processed

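The authors deposited, for each of 6 RNA libraries, a table of raw fragment counts by gene. Per the file headers, the authors counted read pairs with featureCounts 1.4.6 on TopHat alignments and Ensembl release 77 (GRCm38), with both ends aligned, chimeric pairs left out and strand setting 2. The submitters' processing notes name Trimmomatic 0.30 and TopHat2 2.0.14, and also CASAVA 1.8, DESeq and Cuffdiff 2.2.1.

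Symbols matched 40254 of 41214 genes. Low genes were removed with filterByExpr (counts of 10 per library, 15 in total). Libraries were scaled by TMM and compared with the edgeR 4.0.16 quasi-likelihood test in R 4.3.3, with Benjamini-Hochberg adjustment over 13483 genes. A call is an adjusted p under 0.05. An SE is the size of the log2 fold change over the root of its F statistic. CPM is the count per 1e+06 of the TMM-scaled library, and 1 count was worth 0.0364 to 0.0516 CPM. The steps were tested on simulated counts. The chi-square over its degrees of freedom was 3.16 for the closest pair of replicates (shCTL 2 and 3), so each library counted as 1 replicate. It was 27.8 and 28.7 for shCTL replicate 1 against its replicates. For shCdGAP it was 13.9 between replicates 2 and 3, and 155 and 203 for replicate 1 against them.

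Members, lists, rules and tests were chosen with earlier results of these data known. Named genes are the members, Arhgap31, the 2 risen and 2 fallen genes of each list with the smallest adjusted p, called and nearest neighbours of Gatm, and the 5 genes most like it. Slc6a6, Cdh1 and Krt5 were added after values were seen. A listed gene is not reported here. Deviations from group means correlated at 0.36, 0.29 and 0.25 between libraries numbered 1, 2 and 3, so the numbers were taken to pair the libraries. Numbers 2 and 3 are not told apart by this, since shCTL 3 with shCdGAP 2 reached 0.25 and shCTL 2 with shCdGAP 3 reached 0.19. The pairing rests on the data alone, because no shared day is given in the labels. The main test had the group as its only term, without the replicate number. Slc6a13 and Shmt2 therefore count as called in their lists, though the block lost both calls. Blocked values stand where they change a call. Alternatives were RLE factors, DESeq2 1.42.0, other filters, the replicate block and left-out libraries. Protein sequences were not used here.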

Additional observations from a re-analysis of the deposited data

How the results depend on the processing

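The Gatm log2 fold change ran from −10.53 to −9.32 with a library left out. That of Gamt ran from −1.78 to −0.98, of Slc6a8 from −0.93 to −0.18 and of Ckmt1, never called, from −0.01 to 0.49. Gamt was called at −1.27 with RLE factors and with DESeq2 and at −1.28 with no filter on low counts. Without both libraries numbered 1, Gamt (−1.81) and Slc6a8 (−0.74) were called lower, and Sord turned to −0.68, as it did without shCdGAP replicate 1 (−0.85). With a library left out Sord ran from −0.85 to 0.69.

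Genes called higher and lower over the whole table numbered 870 and 825 of 9325 tested with at least 10 CPM required. They numbered 3475 and 3640 of 13625 without both libraries numbered 1. With no filter they were 1316 and 1636 of 22322. Of 13483 tested genes, they were 1419 and 1546 with RLE factors, 1277 and 1468 with the replicate block and 1894 and 1949 with DESeq2. With a library left out they ran from 538 to 2753 and from 856 to 3032. The lowest counts came without shCTL replicate 2 (13629 tested) and the highest without shCdGAP replicate 1 (13831 tested). Other carriers called higher numbered 2 of 3 tested with RLE factors, with no filter, with DESeq2 and without both libraries numbered 1. With at least 10 CPM they numbered 0 of 1 tested. Those called lower numbered 0 with no filter, at least 10 CPM, the replicate block or DESeq2. Arginine and glycine genes called lower numbered 0 of 15 tested with at least 10 CPM and 1 of 19 with the replicate block. Without both libraries numbered 1 there were 4 higher and 5 lower of 19. S-adenosylmethionine genes numbered 2 higher and 1 lower of 10 tested with DESeq2, and 4 and 2 of 10 without both libraries numbered 1. Phosphotransfer genes numbered 1 higher of 19 tested with no filter, and 5 higher and 4 lower of 14 without both libraries numbered 1. Known factors called lower numbered 0 of 6 tested with at least 10 CPM and 2 of 7 without both libraries numbered 1. Genes next to Gatm called lower numbered 1 of 5 and 6 of 9 in these settings. With a library left out, higher and lower calls ran from 1 to 2 and 0 to 1 for carriers, 0 to 3 and 1 to 6 for arginine and glycine, 1 to 3 and 0 to 1 for S-adenosylmethionine, 0 to 5 and 2 to 4 for phosphotransfer, 0 and 1 to 2 for known factors and 0 and 2 to 6 for genes next to Gatm. The replicate block changed no call of a named gene other than Slc6a13 and Shmt2. With at least 10 CPM required, the filter removed Slc16a12, Slc6a13, Nos1, Esr1 and AA467197, so these were not tested there. In the other 11 alternatives, Slc16a12, Nos1, Esr1 and AA467197 stayed called, and Slc6a13 was called in 3. The cause of the other changes was not tested. Ckb, with few fragments, and Ckm and Ckmt2, with 0, could not be tested.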
